A study of Homo sapiens with 12 samples.

Results

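Ribosome density, the number of ribosome footprints in a reading frame relative to input RNA fragments of that frame, was measured in HCT116 cells. These are an established human colorectal cancer cell line, and had received the solvent DMSO and no drug for 24 h. The measurement rests on 6 of the 12 libraries of the series: 3 of input RNA and 3 of ribosome protected fragments. A gene was included when it had at least 10 counts in each of the 3 DMSO input libraries, which 9987 of the 15798 genes in the table did. The other 6 libraries came from cells given 100 nM trametinib, a MEK inhibitor, for 24 h and are used only for values set side by side at the end. In both treatments cycloheximide, which halts elongating ribosomes, was added shortly before lysis, so that all libraries share this exposure. The filter used input alone, so 1346 genes with at least 10 counts in every DMSO footprint library but too little input were left out.

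An mRNA is read by several ribosomes at once, and each protects a short stretch of it from nuclease. How many ribosomes it carries depends mainly on how often translation starts and on how long each ribosome stays. Starting is known to be controlled by elements in the leader, the untranslated stretch before the start codon: a run of pyrimidines at the first transcribed base, which marks 5'TOP mRNAs, short upstream reading frames, and hairpins such as the iron responsive element. Because footprints and input were both counted over the same reading frame, the length of a gene cancels in their ratio if both lie evenly along the frame. Whether they did was not tested. The ratio thus measures ribosomes per stretch of reading frame, not ribosomes per whole mRNA.

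The 3 input libraries held 2486486 to 2845568 counts each and the 3 footprint libraries 10127477 to 18326776, so input was counted at lower depth. Of 10 epithelial markers, 7 had at least 10 counts in every input library, among them EPCAM, CDH1, KRT8, KRT18 and KRT19, whereas VIL1 and CEACAM5 had at most 2 counts in any library. Of 8 markers of other cell types, 5 had at most 3 counts in any library, and the 8 together took between 0.00141% and 0.00201% of a library's counts. In input the log2 values deviated from the group mean with an SD over genes of 0.289, 0.198 and 0.267 in replicates 1, 2 and 3. In footprints these were 0.306, 0.165 and 0.226, so replicate 1 deviated most in both assays, with input replicates 1 and 3 close.

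Ribosome density differed widely between genes. The log2 density, the log2 of footprints over input after scaling of the libraries, is relative, and 0 stands for an mRNA with a typical ratio. Its 10th and 90th percentiles over the 9987 genes were -1.38 and 1.11, a 5.61-fold span, and its 1st and 99th were -2.77 and 2.12, a 29.7-fold span. The median standard error (SE) of a gene was 0.21 on the log2 scale. The quasi-likelihood test of edgeR called 2655 genes higher (26.6% of the genes tested) and 2769 lower (27.7%) at a Benjamini-Hochberg adjusted p under 0.05. Of these, 1184 and 1656 differed at least 2-fold from the typical ratio. Log2 density bore little relation to the log2 input level, with a Spearman rho of 0.049 over 9987 genes, whose input values enter both axes.

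**Figure D1:**
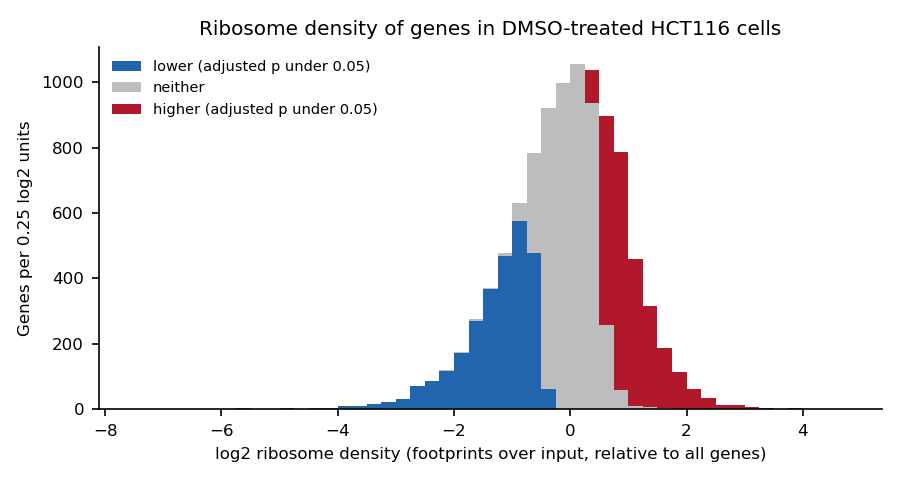
Histogram of log2 ribosome density (x axis, footprints over input relative to all genes) of the 9987 genes tested in DMSO, with the number of genes per 0.25 log2 units on the y axis. Blue marks the 2769 genes called lower, red the 2655 called higher and grey the rest. Genes entered by their input counts alone, so genes with footprints but little input are not in the plot.

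The genes with the highest ribosome density encoded mostly small proteins. The 15 highest had log2 densities from 2.60 to 4.39. The rule that picked them required a call, a mean normalized input count of at least 100 and all 3 replicates above 0. H2BC21, a histone H2B gene at chr1:149884459-149886682 on the minus strand of hg38, had input values of 51.8, 27.9 and 37.3 CPM (counts per 1000000 after scaling of the libraries) and footprint values of 1067, 781 and 604 CPM. The lowest footprint value was thus over the highest input value, and the log2 density was 4.39 ± 0.30 (SE, n = 3 libraries per assay), with an adjusted p of 9.88e-06. HNRNPD, which encodes a protein that binds AU-rich elements of short-lived mRNAs, had 48.3, 81.6 and 64.2 CPM in input and 798, 1028 and 1203 CPM in footprints, a log2 density of 3.96 ± 0.25.

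H3-3A, which encodes the replication-independent histone H3.3, had 88.4, 99.8 and 93.1 CPM in input and 952, 1161 and 1048 CPM in footprints, which lay far apart, and its log2 density was 3.49 ± 0.17. EIF1, the factor that keeps the scanning ribosome open until it meets a start codon, had log2 ratios of 3.20, 2.87 and 3.25 in replicates 1, 2 and 3, on input values of 203, 110.2 and 84.0 CPM. EIF5A, which helps ribosomes through difficult peptide bonds, stood at 2.84 ± 0.17. Other members were RAB1A, TMSB4X, PTGES3, HSPE1, SDCBP, CAPNS1, ATP5PF, ERH and HMGN2, at log2 densities between 2.60 and 3.05. Exons of another gene cover 47.9% of the coding bases of HSPE1 on the same strand and 37.2% of those of EIF5A on the opposite strand in Gencode v44. The median reading frame of the 15 had 136 codons, against 486 over all genes tested, and 0 of the 15 had an ATG in the leader of their canonical transcript, against 39.2% of all genes tested.

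At the other end stood genes whose mRNA was plain in input and nearly absent from footprints. The 15 lowest by the same rule, here with all 3 replicates below 0, had log2 densities from -4.43 to -3.36. METRN, which encodes the secreted protein meteorin, had 95.5, 101 and 156 CPM in input but 3.43, 7.07 and 6.01 CPM in footprints. Every footprint value was below every input value, and the log2 density of -4.43 ± 0.31 put it 21.6-fold below the typical ratio (adjusted p = 1.05e-05). C6orf62 and NSMF followed at -3.99 ± 0.21 and -3.98 ± 0.22, and USF3, a large transcription factor, at -3.92 ± 0.21.

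KCNH3, a potassium channel, had 81.4, 59.7 and 87.8 CPM in input and 8.20, 8.09 and 5.67 CPM in footprints, with no overlap. PKD1, which encodes polycystin, stood at -3.50 ± 0.33. It has near-identical pseudogene copies, and the study's methods do not name how reads shared with pseudogenes were treated. MEX3D, CCNB1IP1, B4GALT2, ARNTL2 and GUK1, a guanylate kinase, lay between -3.58 and -3.36. FTL, the light chain of ferritin, had the highest input level of the 15 and is described with the iron responsive elements. Of the 14 with a reading frame in Gencode v44, 10 (71.4%) had an upstream ATG, against 39.2% of all genes tested. Their median leader had 249.5 nt, against 134 over all genes tested. Their median GC content at the third codon position was 79.6%, against 58.1% over all genes tested and 47.8% in the 15 highest. Exons of another gene cover 19.2% of the coding bases of LRP3, a receptor of the LDL receptor family, on the same strand.

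**Figure D2:**
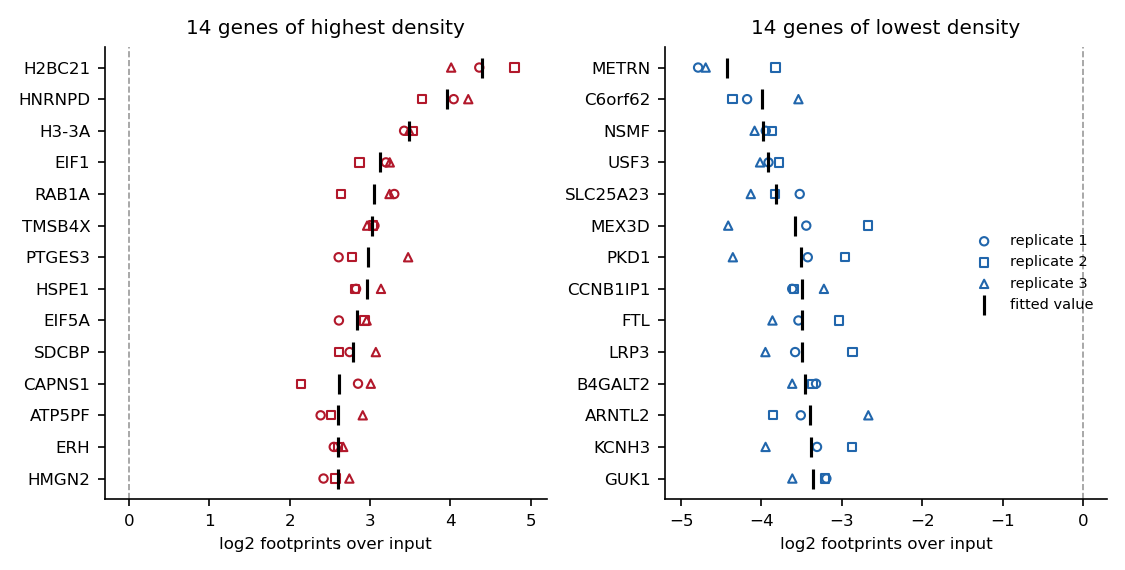
Log2 footprints over input (x axis) of 14 of the 15 genes of highest (left) and 14 of the 15 of lowest (right) ribosome density in DMSO. Open symbols are the 3 same-numbered pairs of libraries, black bars the fitted values and the dashed line the typical ratio. The 3 pairs of each gene shown lie on the same side of 0, which the rule that picked the genes required.

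For 4 genes tested (AOC2, NBPF10, PCDH7 and RNF43), all 3 footprint libraries held at most 3 counts. They entered by their input alone, at 4.91 to 5.92 CPM, and the same filter left out genes with footprints but too little input. Against a floor of 3 counts in a footprint library of mean size, the footprints of these 4 genes were 24.2-fold to 29.2-fold below their input in CPM. In the smallest footprint library 3 counts stand for more CPM, so the bound is lower there. NBPF10 belongs to a family of near-identical copies, whose shared reads were not counted.

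Density also differed between gene groups. In what follows the median of a list is given relative to the median of all genes tested, with the SD over the 3 same-numbered pairs of libraries, and the counts called can be read against 26.6% higher and 27.7% lower over all genes. Where a list had 0 genes higher or lower by edgeR, it also had 0 in that direction at an unadjusted p under 0.05, by DESeq2 and by limma.

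**Figure D3:**
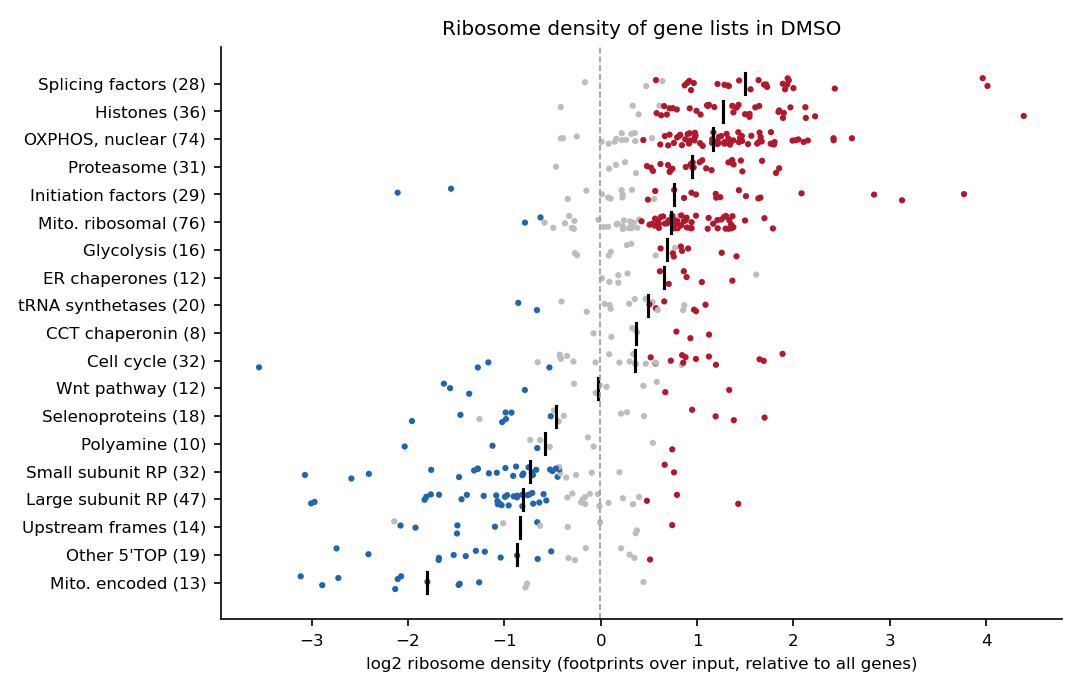
Log2 ribosome density (x axis) of every tested member of 19 gene lists in DMSO, 1 row per list with the number of tested genes in brackets. Red points were called higher, blue lower and grey neither way at an adjusted p under 0.05, black bars are list medians and the dashed line is the median of all genes. Splicing factors are highest at 1.50 and mitochondrially encoded genes lowest at -1.79, relative to all genes.

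Ribosomal protein mRNAs, the most abundant class of 5'TOP mRNAs, carried few ribosomes for their amount. Of 47 genes for the large subunit, 31 were lower and 3 higher, with a relative median of -0.81 ± 0.12, and of 32 for the small subunit 24 were lower and 2 higher, with -0.73 ± 0.07. RPS2 had 5264, 3923 and 5696 CPM in input and 603, 556 and 615 CPM in footprints, which did not overlap, and was the lowest at -3.07 ± 0.19 (adjusted p = 8.98e-06). RPLP0, the stalk protein, stood at -2.97 ± 0.17 and RPSA at -2.59 ± 0.16. RPL36A was as low, at -3.01 ± 0.45, but on input values of only 15.9, 11.5 and 4.18 CPM. The median reading frame of the 79 genes had 151 codons, whereas all genes tested of over 100 to 150 codons had a median log2 density of 0.82 and those of over 150 to 200 codons 0.67.

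A few ribosomal proteins went the other way. RPLP2, the partner of RPLP0 in the stalk, had 298, 335 and 350.1 CPM in input and 827, 885 and 929 CPM in footprints, a log2 density of 1.43 ± 0.15 (adjusted p = 5.93e-05). RPL38, at 0.79 ± 0.16, and FAU, which encodes a fusion of a ubiquitin-like protein with a small subunit protein, at 0.76 ± 0.17, were also called higher. RPS15 was called higher as well. Many ribosomal protein genes have processed pseudogenes, and the study's methods do not name how reads shared with these were treated. Reads shared between reading frames of different gene symbols were not counted, in input and footprints alike.

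The 5'TOP element was found in ribosomal protein genes of low and of high density. Windows are printed only for genes that match it, so they do not show how common it is at either end. RPS2, the lowest ribosomal protein gene, is not among them. Of 53 ribosomal protein genes with a single RefSeq start, 41 (77.4%) began with C and at least 4 further pyrimidines, against 6.09% of the genes tested with a single start and 4.07% of all 35116 starts in the RefSeq table. The windows of the lowest 3 and the highest 2 ribosomal protein genes that match, and of the 3 lowest genes of the other 5'TOP list that have a single start and match, are printed 5′ to 3′ on the gene's strand in GRCh38.p14, with the first transcribed base and the pyrimidines that follow it in capitals, to show the element in mRNAs of low and of high density.
RPL36A (chrX:101391001-101391025, plus strand): ctcgcggtttCTTTCTTTCCgcgcc
RPLP0 (chr12:120201097-120201121, minus strand): ggcgcgaggcCCTTCTCTCgccagg
RPSA (chr3:39406710-39406734, plus strand): tgccgcctgtCTTTTCCgtgctacc
RPL38 (chr17:74203668-74203692, plus strand): aagtctcgttCTTTTTCgtcctttt
RPLP2 (chr11:809957-809981, plus strand): tcggcgccttCCTTTTCCTCCCTgt
TPT1 (chr13:45341169-45341193, minus strand): ctgagtcggcCTTTTCCgcccgctc
EIF4B (chr12:53006446-53006470, plus strand): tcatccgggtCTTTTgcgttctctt
EEF2 (chr19:3985449-3985473, minus strand): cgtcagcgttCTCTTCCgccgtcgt
RPLP2 has the longest of these 8 runs and the highest density, but RPL36A has the next longest and the lowest density, at -3.01. Over the 5778 tested genes with a single start, 352 matched, with a median log2 density of -0.13 against 0.07 for the rest, a difference of -0.21 ± 0.06 (SD over pairs). Without the ribosomal protein and other 5'TOP lists the difference was -0.14 ± 0.09. With at least 7 pyrimidines after the C it was -0.33 ± 0.03 over all such genes and -0.31 ± 0.008 without those lists.

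The other 5'TOP mRNAs encode elongation factors, some initiation factors and poly(A) binding proteins. Of 19, 12 were lower and 1 higher, with a relative median of -0.86 ± 0.09. EEF1A1, which delivers aminoacyl-tRNA to the ribosome, had 39474, 30934 and 28445 CPM in input and 15674, 11675 and 12910.2 CPM in footprints, a log2 density of -1.30 ± 0.20. EEF2, which moves the ribosome along, stood at -1.40 ± 0.15. PABPC1, the poly(A) binding protein, was lowest at -2.74 ± 0.26, and TPT1, a translationally controlled tumour protein, was at -2.41 ± 0.20. NAP1L1, a histone chaperone, was the 1 called higher, at 0.51 ± 0.19 (adjusted p = 0.047), a call lost without any 1 of 5 of the 6 libraries, at log2 densities from 0.32 to 0.59. VIM, NPM1, HNRNPA1, EIF4A2, RACK1 and EIF3F did not pass, with HNRNPA1, an RNA binding protein, at 0.21 ± 0.20 (adjusted p = 0.401).

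Initiation factors outside the 5'TOP class were on the opposite side. Of 29 tested, 17 were higher and 2 lower, with a relative median of 0.77 ± 0.06. EIF3J, a loosely bound part of the eIF3 complex, had 8.10, 10.1 and 4.94 CPM in input and 129, 90.5 and 98.7 CPM in footprints and reached 3.77 ± 0.27, the highest of the list. EIF4E, the cap binding protein, stood at 1.64 ± 0.15, EIF1AX at 1.66 ± 0.18 and EIF2S1, the alpha subunit of eIF2, at 1.43 ± 0.16. The 2 lower ones were EIF4G2, known to start at a codon other than AUG, at -1.55 ± 0.19, and EIF3C, at -2.11 ± 0.39, which has a near-identical copy and low counts. Of 20 cytosolic aminoacyl-tRNA synthetases 6 were higher and 2 lower (relative median 0.49 ± 0.16), from QARS1 at -0.86 ± 0.17 to HARS1 at 1.09 ± 0.17. Their relative median was 0.16 without the footprint library of replicate 1, and without both replicate 1 libraries 11 were higher.

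Nuclear genes for the machinery of the mitochondrion had high densities. Of 74 subunits of the respiratory chain and ATP synthase, 60 were higher and 0 lower by edgeR, with a relative median of 1.17 ± 0.02. ATP5PF, a coupling subunit of ATP synthase, was highest, with 43.7, 51.3 and 37.6 CPM in input, 229, 295 and 284 CPM in footprints and a log2 density of 2.61 ± 0.19 (adjusted p = 1.05e-05). COX6C, of cytochrome c oxidase, stood at 2.42 ± 0.18 and NDUFA8, of complex I, at 2.42 ± 0.17. The lowest was NDUFB7, whose -0.41 ± 0.20 did not pass (adjusted p = 0.107), but did with the replicate number as a block (-0.40, adjusted p = 0.0284). Their median reading frame had 141.5 codons, close to that of the ribosomal proteins at 151. All genes tested of over 100 to 150 codons had a median log2 density of 0.82, and 59.9% of them were called higher. Of 76 mitochondrial ribosomal proteins 49 were higher and 2 lower (relative median 0.73 ± 0.03), with MRPS18C at 1.79 ± 0.21 and MRPL37 at -0.79 ± 0.25 as the ends. The call of MRPL37 was lost without any 1 of 4 libraries, at log2 densities from -0.84 to -0.57. The median reading frame of the 76 had 199.5 codons. All genes tested of over 150 to 200 codons had a median log2 density of 0.67, and 52.3% of them were called higher.

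The 13 mRNAs made inside the mitochondrion, which are translated there by mitochondrial ribosomes, were at the bottom of all lists, with 10 lower, 0 higher by edgeR and a relative median of -1.79. MT-ND4, of complex I, had 4758, 4196 and 5373 CPM in input and 605, 758 and 293 CPM in footprints, a log2 density of -3.11 ± 0.33. MT-CO1, of cytochrome c oxidase, stood at -1.46 ± 0.35, a call lost without both replicate 1 libraries (adjusted p = 0.176). MT-ATP8, whose reading frame overlaps that of MT-ATP6, was the highest at 0.44 ± 0.38 and did not pass (adjusted p = 0.356), though it did without the footprint library of replicate 3 (0.79). The replicates disagreed more here than in any other list: the relative median was -1.70, -1.13 and -2.95 in replicates 1, 2 and 3, an SD of 0.93. Only 2 of the 13 were called lower without both replicate 1 libraries, at a relative median of -1.84. Footprints came from the monosome fraction of a gradient of cytoplasmic lysate, and whether mitochondrial ribosomes entered it as fully as cytosolic ones was not tested.

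Proteasome subunits were high as a group, with 26 of 31 higher and 0 lower by edgeR (relative median 0.95 ± 0.08), from PSMA1 at -0.46 ± 0.21 (adjusted p = 0.0882, and 0.0451 with the replicate number as a block) to PSMD12 of the regulatory particle at 1.85 ± 0.20. PSMD12 had 107, 167 and 129 CPM in input and 418, 494 and 541 CPM in footprints, with no overlap. Of 16 glycolytic genes 8 were higher and 0 lower (0.69 ± 0.07), with LDHA, lactate dehydrogenase A, highest at 1.41 ± 0.27 and PGK1 next at 1.26 ± 0.15. GAPDH, among the most abundant mRNAs, was lowest at -0.27 ± 0.20 (adjusted p = 0.28). Chaperones of the endoplasmic reticulum had 6 of 12 higher and 0 lower (0.66 ± 0.25): HSP90B1 stood at 1.37 ± 0.19, PDIA3 at 1.05 ± 0.16, PDIA6 at 0.89 ± 0.14, DNAJB11 at 0.86 ± 0.20 and CANX at 0.71 ± 0.18, and DNAJC3 was called at 0.61 ± 0.19, though not without the input library of replicate 3 (0.48). P4HB, PDIA4, SDF2L1, CALR and HYOU1 did not pass, at log2 densities from 0.01 to 0.28.

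HSPA5, the main chaperone of that compartment, is a case in which replicate 1 stood apart. Its input values were 2665, 934 and 675 CPM and its footprint values 8411, 2431 and 2234 CPM, so both assays were highest in replicate 1 and the 2 assays overlapped, yet the log2 ratios within replicates were 1.66, 1.38 and 1.73. The log2 density of 1.61 ± 0.75 did not pass (adjusted p = 0.116), and with the replicate number as a block it did (1.59, adjusted p = 1.52e-07). It passed as well without both replicate 1 libraries, at 1.55, without its input library alone, at 2.45, and without the footprint library of replicate 3, at 1.93. Without the footprint library of replicate 1 it stood at 0.74.

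The CCT chaperonin, which folds actin and tubulin, had 3 of 8 subunits higher and 0 lower (0.37 ± 0.33), namely CCT5 at 1.12 ± 0.17, CCT2 at 0.93 ± 0.17 and CCT7 at 0.79 ± 0.17, while TCP1, CCT3, CCT8, CCT6A and CCT4 lay between -0.08 and 0.38. With both replicate 1 libraries left out, 5 of the 8 were higher. Of 12 actin and tubulin genes 2 were higher and 0 lower (0.50 ± 0.06), ACTB at 0.88 ± 0.19 and TUBB2A at 0.61 ± 0.16. The others ran from TUBG1 at -0.19 ± 0.24 to TUBA4A at 0.93 ± 0.59, and of these TUBA4A passed with the block (adjusted p = 0.000215) and without the footprint library of replicate 1 (1.32). In the fit that lacked both replicate 1 libraries, 7 of the 12 were higher.

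Splicing factors and histones had the highest medians of the lists. Of 28 splicing factors of the SR and hnRNP families 25 were higher and 0 lower, with a relative median of 1.50 ± 0.12. HNRNPA0 had 11.6, 20.6 and 21.7 CPM in input and 267, 325 and 277 CPM in footprints and was highest at 4.01 ± 0.24, on input too low for the 15 highest genes above. HNRNPL stood at 2.43 ± 0.15 and SRSF5 at 2.00 ± 0.19, whereas HNRNPUL1 was lowest at -0.16 ± 0.14 and did not pass.

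Of 36 replication-dependent histone genes tested, 32 were higher and 0 lower, with a relative median of 1.28 ± 0.16. Their median reading frame had 128 codons. All genes tested of over 100 to 150 codons had a median log2 density of 0.82, with 59.9% called higher. Next to H2BC21 came H4C5 at 2.22 ± 0.20, and the lowest, H2AC16, did not pass at -0.41 ± 0.31. Histone genes are near-identical to each other, so each was measured on the part of its sequence that no other symbol shares, and 30 of the 66 listed genes had too little input to be tested. These mRNAs are known to lack a poly(A) tail, and the study's methods name depletion of ribosomal RNA, not selection for poly(A), for input and footprints alike.

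Zinc finger genes of the ZNF series leaned the other way: of 228 tested, 78 were lower and 15 higher (-0.36 ± 0.05). ZNF875 was lowest at -3.67 ± 0.38, on few counts, and ZNF706, which encodes a protein of 76 codons, was highest at 2.34 ± 0.20. Of 32 cyclins, cyclin-dependent kinases and their inhibitors 12 were higher and 4 lower (0.36 ± 0.03). CDK6, which drives entry into S phase with D-type cyclins, stood at 1.89 ± 0.21 and CDKN1A, the p21 inhibitor, at 1.12 ± 0.25. CDKN2C, an inhibitor of CDK4 and CDK6, was lowest at -3.55 ± 0.42 with 4.93, 8.37 and 5.32 CPM in input and 0.233, 0.615 and 0.745 CPM in footprints.

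Immediate early genes and ERK outputs had 7 of 27 higher and 2 lower (0.45 ± 0.33), a share close to that of all genes called higher, and without both replicate 1 libraries 12 were higher. EGR1, a zinc finger transcription factor, stood at 1.50 ± 0.28, MCL1, which protects from apoptosis, at 1.33 ± 0.24 and DUSP6, an ERK phosphatase, at 0.80 ± 0.20. JUN was highest at 1.69 ± 0.59 and JUND, its relative, lowest at -1.60 ± 0.27 with SPRY2, which dampens receptor signalling, next at -0.70 ± 0.22. The call of SPRY2 (adjusted p = 0.0217) was lost without the input library of replicate 1 (-0.60), without the footprint library of replicate 2 or 3 (both -0.68), without both replicate 1 libraries (-0.64), with DESeq2 (-0.70) and with no filter (-0.63). JUN had 20.1, 12.2 and 4.56 CPM in input and 63.5, 37.2 and 19.2 CPM in footprints, both highest in replicate 1 and overlapping between the assays, and its call (adjusted p = 0.0461) was lost without any 1 of 4 libraries, at log2 densities from 1.20 to 1.74.

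Integrins and laminins had 4 of 18 lower and 1 higher (-0.08 ± 0.06), with a median whose sign turned without the input library of replicate 1 (0.18) or the footprint library of replicate 3 (0.02). ITGAE stood at -1.83 ± 0.21 and ITGA2, a subunit of a collagen receptor, at 1.24 ± 0.32. Of 7 epithelial markers 2 were higher and 0 lower (0.46 ± 0.02): EPCAM at 1.64 ± 0.20 and KRT19 at 0.71 ± 0.19, the latter not without the input library of replicate 2 (0.57). CDX2, CLDN7, KRT8, CDH1 and KRT18 lay between -0.24 and 0.59 and did not pass. Without both replicate 1 libraries 4 of the 7 were higher, as were 2 of the 18 integrin and laminin genes.

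The same counts were also summed as shares of each library, which restates the lists above and is not a separate measurement. Ribosomal protein mRNAs made up 11.9%, 10.9% and 11.4% of reading frame counts in the 3 input libraries but 5.75%, 4.99% and 5.66% in the 3 footprint libraries, a footprint share 0.48 ± 0.02 times the input share (SD over pairs). The other 5'TOP genes held 5.67% ± 0.53 of input and 2.32% ± 0.16 of footprints (SD, n = 3), and mitochondrially encoded genes 4.65% ± 0.24 and 1.32% ± 0.67. Histone genes held 1.09% ± 0.08 of input and 2.47% ± 0.30 of footprints, and splicing factors 0.719% ± 0.056 and 1.86% ± 0.17. The input and footprint libraries did not overlap for any of these lists, nor for the respiratory chain, mitochondrial ribosomal, proteasome and ZNF lists. With 3 libraries against 3 the two-sided exact permutation test cannot go below p = 0.1, which these 9 of 11 lists reached (0.122 after adjustment over the 11), while glycolytic genes gave 0.2 and actin and tubulin genes 0.3.

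**Figure D4:**
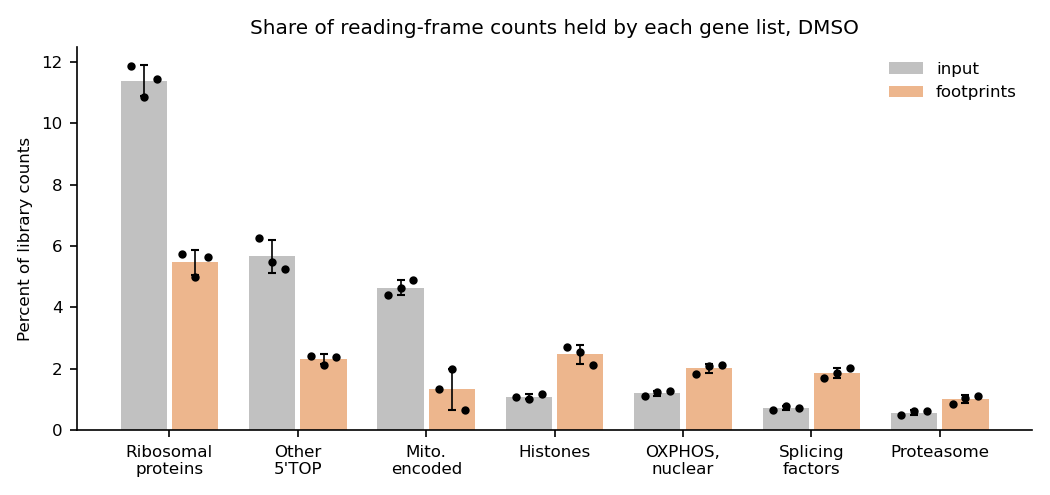
Percent of reading frame counts (y axis) held by 7 gene lists in the DMSO libraries. Bars are means of 3 input (grey) or 3 footprint (orange) libraries, whiskers are SDs and points are libraries. Ribosomal proteins, other 5'TOP genes and mitochondrially encoded genes hold less of the footprints than of the input, and the other 4 lists hold more.

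Leader elements that are known to hold back translation were examined next. The first list, 15 mRNAs with well-studied upstream reading frames, several of them of the integrated stress response, had 6 of 14 tested lower and 1 higher (-0.83 ± 0.19). Its median was -0.46 without the input library of replicate 1, -1.28 without the footprint library of replicate 1 and -0.62 and -0.57 without those of replicates 2 and 3. When both replicate 1 libraries were left out, 9 were lower. For 5 of the 6 called lower (the sixth, AZIN1, is described with the polyamine genes), the first upstream ATG is printed in capitals with 9 bases on either side, 5′ to 3′ on the gene's strand in hg38, from the canonical Gencode v44 transcript.
ATF4 (chr22:39520577-39520597, plus strand): cgcccacagATGtagttttct
DDIT3 (chr12:57520469-57520489, minus strand): gagcgtatcATGttaaagatg
PPP1R15B (chr1:204411679-204411699, minus strand): ctcctatccATGgtgttgaag
IBTK (chr6:82247616-82247636, minus strand): tcactgaggATGagtcccttt
SLC35A4 (chr5:140564835-140564855, plus strand): gcggggaagATGgcggatgac
ATF4, the transcription factor at the centre of that response, had 1103, 727 and 613 CPM in input and 501, 254 and 116 CPM in footprints. Footprints were below input in each replicate, and the log2 density was -1.49 ± 0.52 (adjusted p = 0.0461). DDIT3, its target CHOP, stood at -2.08 ± 0.70 (adjusted p = 0.0461), and both had their highest levels in replicate 1. SLC35A4, with 11 upstream ATG triplets, was at -1.92 ± 0.26, PPP1R15B at -1.49 ± 0.19 and IBTK at -1.10 ± 0.29. The calls of ATF4 and DDIT3 rest on few libraries: ATF4 was not called without any 1 of the input libraries or the footprint library of replicate 2 (-1.66 to -1.20), nor DDIT3 without the input library of replicate 1 (-1.30) or the footprint library of replicate 2 (-1.91). Without the footprint library of replicate 1 they stood at -2.11 and -2.78.

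PPP1R15A, the inducible partner of the eIF2 phosphatase, had the lowest value of these 14 genes at -2.14 ± 1.02 but did not pass (adjusted p = 0.124), and neither did ATF5, at -1.01 ± 1.00 (adjusted p = 0.425). PPP1R15A had 197, 69.1 and 41.1 CPM in input and 52.6, 12.2 and 4.35 CPM in footprints, so its levels in replicate 1 were well over those of the other two in both assays. With the replicate number as a block both passed, PPP1R15A at -2.45 (adjusted p = 3.05e-07) and ATF5 at -1.27 (adjusted p = 0.000492). Without both replicate 1 libraries they passed at -2.80 and -1.76, and without the footprint library of replicate 1 alone at -3.65 and -2.66. Without the input library of replicate 1 they stood at -1.24 and -0.08. EIF5, CEBPB, UCP2, MDM2 and SAT1 did not pass, at log2 densities from -0.63 to 0.37.

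Over all genes the number of ATG triplets in the leader went with density. The 6021 genes with none had a median log2 density of 0.28, the 1906 with 1 had -0.29, the 878 with 2 had -0.59, and the 426 with 5 or more had -0.84. Of genes with 5 or more, 61.7% were called lower and 4.23% higher, against 16.3% and 36.2% of those with none. Spearman's rho was -0.40 over 9909 genes, which share the 6 libraries, and the order of these medians was the same in each of the 3 pairs. Of the 2769 genes called lower, 64.2% of those with a frame in the annotation had an upstream ATG, against 17.5% of those called higher.

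Among genes without an upstream ATG the medians differed little with leader length. In genes with leaders of over 200 to 400 nt and no upstream ATG the median was 0.26, and in those of up to 100 nt it was 0.30. With at least 1 upstream ATG the medians were -0.52 and -0.09. Among genes with exactly 1 upstream ATG, the 1346 whose upstream frame closed before the main start codon had a median of -0.31 and the 516 whose frame ran past it had -0.24. The 42 in which it lay in frame with the main start codon, with no stop between, had a median of 0.14, and 11.9% of them were called lower. The base context of the main start codon also went with density: among genes with no upstream ATG, those with a purine 3 bases before the ATG had medians of 0.30 (with G after the ATG, 3120 genes) and 0.36 (without, 2239 genes). Those without the purine had -0.01 with that G (367 genes) and -0.000582 without it (242 genes).

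Genes of longer reading frames had lower ribosome densities. How evenly footprints lay along short and long frames was not tested. The 183 genes of up to 100 codons had a median log2 density of 1.19 and 73.2% of them were called higher. The median fell with each step in length to -0.93 in the 309 genes of over 2000 codons, of which 65.4% were called lower. Spearman's coefficient was -0.42 over 9909 genes, -0.40 in the 6021 without an upstream ATG and -0.44 without the 5'TOP lists. For GC content at the third codon position it was -0.24, but it varied from -0.41 to -0.09 between the 3 pairs, and for the length of the 3' untranslated stretch it was -0.01.

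**Figure D5:**
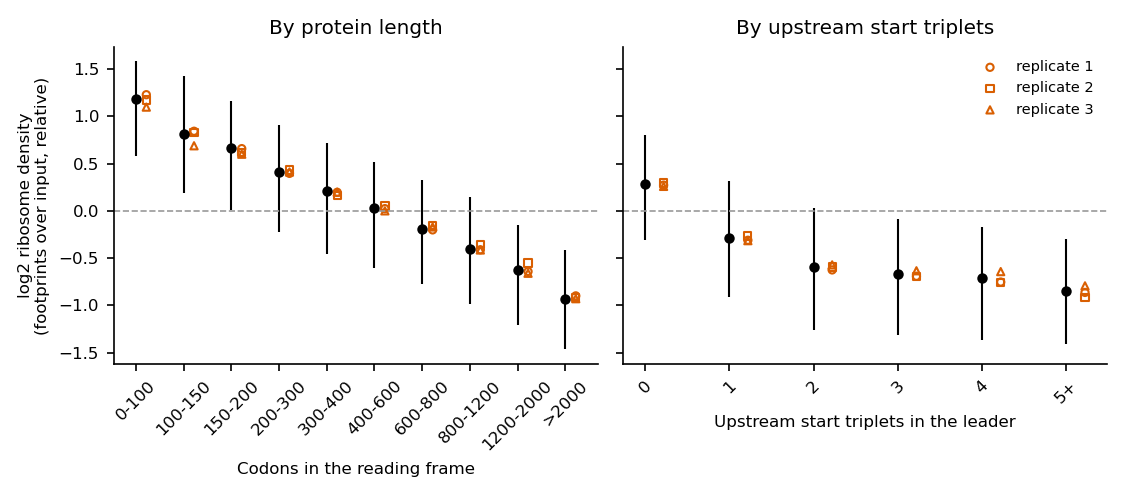
Log2 ribosome density in DMSO (y axis) by number of codons in the reading frame (left) and by number of upstream start triplets in the leader (right). Black points and bars are medians and quartiles over genes, orange symbols the medians in the 3 pairs of libraries. The median falls from 1.19 to -0.93 with length and from 0.28 to -0.84 with upstream triplets.

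Genes of polyamine metabolism, which are known for translational control by polyamines, had 3 of 10 lower and 1 higher (-0.57 ± 0.11). OAZ1, antizyme, is the known case of a programmed frameshift: its ribosomes must skip 1 base to read past an early stop. The site is printed from hg38, plus strand, with the codon before the stop and the stop itself in capitals.
OAZ1 (chr19:2271429-2271455, plus strand): ctcggtggtgcTCCTGAtgcccctcac
OAZ1 had 275, 349.9 and 418 CPM in input and 76.5, 96.6 and 81.7 CPM in footprints, which did not overlap, and a log2 density of -2.03 ± 0.19 (adjusted p = 3.75e-05). ODC1, the enzyme that antizyme destroys, stood at -1.12 ± 0.18, and AZIN1, its inhibitor, at -0.66 ± 0.19, a call lost without any 1 of 3 libraries (-0.60 to -0.56). AMD1, which supplies the aminopropyl groups, was the 1 called higher, at 0.74 ± 0.19. SMOX, SAT1, AZIN2, SMS, OAZ2 and SRM did not pass, at log2 densities from -0.73 to 0.54, and without both replicate 1 libraries 5 of the 10 were lower.

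Ferritin mRNAs are the textbook case of an iron responsive element, a leader hairpin that iron regulatory proteins bind when iron is scarce. The elements of both ferritin mRNAs are printed from the canonical Gencode v44 transcripts, 5′ to 3′ in hg38, with the bulged C and the loop in capitals, because they differ little while the densities differ much.
FTH1 (chr11:61967577-61967604, minus strand): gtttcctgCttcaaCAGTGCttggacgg
FTL (chr19:48965333-48965360, plus strand): gtctcttgCttcaaCAGTGTttggacgg
FTL had 1822, 1412 and 2117 CPM in input and 157, 173 and 145 CPM in footprints, a log2 density of -3.49 ± 0.20 (adjusted p = 8.7e-06), or 11.3-fold below the typical ratio. FTH1 had 1523, 968 and 923 CPM in input and 891, 528 and 414 CPM in footprints, -0.90 ± 0.30 (adjusted p = 0.0325). Input exceeded footprints without overlap for both genes, and FTH1 was not called without the input library of replicate 1 (-0.62) or the footprint library of replicate 2 (-0.80) or 3 (-0.68). The letters C, any 5 bases and CAGTGN, which both hold, occur in 5.58% of 9754 leaders of tested genes, on the sense strand only, so the letters alone are common. TFRC, the transferrin receptor, whose elements lie after the reading frame and are known to stabilise its mRNA, stood at 0.89 ± 0.28, a call lost without any 1 of 3 libraries (0.70 to 0.93). CDC42BPA, a kinase gene with a leader match, was at -1.87 ± 0.23. Of the 8 genes in the list 3 were lower and 1 higher (-0.13 ± 0.17), and the other 4, among them SLC11A2, EPAS1 and CDC14A, lay between -0.30 and 0.17 and did not pass. The list's median was 0.05 without both replicate 1 libraries.

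Selenoprotein mRNAs carry a UGA codon inside the frame that is read as selenocysteine, and reading it is known to be slow and incomplete. Of 18 tested, 7 were lower and 4 higher (-0.46 ± 0.04). The first UGA codon is printed in capitals with up to 9 bases on either side for 3 genes with most of the frame after it and 3 with little, from canonical Gencode v44 transcripts in hg38 (T for U).
GPX4 (chr19:1105394-1105414, plus strand): gcctcccagTGAggcaagacc
GPX1 (chr3:49358123-49358143, minus strand): gcgtccctcTGAggcaccacg
SELENON (chr1:25802084-25802104, plus strand): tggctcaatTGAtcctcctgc
SELENOI (chr2:26389059-26389079, plus strand): aactcagatTGActaggaatg
SELENOS (chr15:101272774-101272788, minus strand): tctggcggaTGAggc
MSRB1 (chr16:1940803-1940823, minus strand): tcccgattcTGAatattcagc
GPX4, which reduces lipid peroxides and has 62.9% of its frame after the UGA, had 349, 265 and 396 CPM in input and 129, 139 and 101 CPM in footprints and stood at -1.46 ± 0.20. GPX1, with 75.9% after it, was at -0.93 ± 0.17, SELENON, with 78.5%, at -0.98 ± 0.22, and SELENOW, with 85.1%, at -1.96 ± 0.20. MSRB1, a methionine sulfoxide reductase with 18.1% after the UGA, was at 1.70 ± 0.29 and SELENOS, with 0.529%, at 1.38 ± 0.25.

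Of the 9 selenoprotein genes with at least 50% of the frame after the UGA, 5 were lower and 0 higher by edgeR, with a median log2 density of -0.98. Of the 9 with less than 50%, 2 were lower and 4 higher, with a median of 0.45. The split was made after the values were seen, so it is a description. The 2 lower ones in the second set were SELENOO, at -0.99 ± 0.24, and TXNRD3, at -0.52 ± 0.16, whose UGA stands near the end of the frame as it does in SELENOS. The call of TXNRD3 was lost without any 1 of 4 libraries (-0.51 to -0.45).

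AXIN1, the scaffold of the complex that degrades beta-catenin, had a low density before any drug. Its input values were 38.8, 26.5 and 30.8 CPM and its footprint values 9.89, 10.7 and 10.5 CPM, with no overlap, and the log2 density was -1.63 ± 0.20, 3.09-fold below the typical ratio (adjusted p = 0.000137). APC, the partner of AXIN1 in that complex, stood at -1.36 ± 0.17, SIAH2, a ubiquitin ligase, at -1.56 ± 0.18, and TNKS2, a tankyrase that marks AXIN1 for degradation, at -0.79 ± 0.20. CTNNB1, beta-catenin itself, was on the other side, with 475, 604 and 514 CPM in input, 1113, 1567 and 1334 CPM in footprints and a log2 density of 1.33 ± 0.18 (adjusted p = 0.000233). CSNK1A1, the kinase that primes beta-catenin, was at 0.67 ± 0.23, a call lost without any 1 of 4 libraries (0.48 to 0.66). In all, 4 of 12 were lower and 2 higher (-0.03 ± 0.02), and GSK3A, GSK3B, BTRC, TNKS, SIAH1 and RNF146, between -0.28 and 0.58, did not pass. The list's median was 0.03 without the footprint library of replicate 3, and 3 genes were higher without both replicate 1 libraries.

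Counted per codon, which allows levels to be compared between genes, the most footprints lay mainly on mRNAs of small abundant proteins. TMSB10, thymosin beta 10, had the most footprints per 100 codons at 3954 CPM, followed by EEF1A1 at 2905, S100A6, a calcium binding protein, at 2680.1, PTMA, prothymosin alpha, at 2106 and RPL38 at 1656. EEF1A1 differed from TMSB10 in its mRNA level, with 7132 CPM of input per 100 codons against 1321. H4C2, PFN1, H2AZ1, H4C5 and HSP90AA1 completed the 10. Of the 10 genes 8 were called higher in density, against 26.6% of all genes tested. Footprints rank these genes and also enter density, which favours calls of higher. EEF1A1 was called lower, and PTMA did not pass at 0.33 ± 0.30 (adjusted p = 0.373, and 0.0358 with the replicate number as a block). PFN1, profilin, stood at 0.92 ± 0.17, H2AZ1 at 2.02 ± 0.15 and HSP90AA1, a cytosolic chaperone, at 1.81 ± 0.31.

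Set beside these values, the order of genes in trametinib was close to that in DMSO. Over 9987 genes, fitted on separate libraries, Pearson's r of the 2 log2 densities was 0.94 and Spearman's rho 0.94. All 15 highest genes were also called higher in trametinib and all 15 lowest also lower. Of all genes called higher in DMSO 94.4% were called higher in trametinib too, and of those called lower 93.9% were called lower, so the extremes were close to the rest in this. A test of the difference, an interaction of assay and treatment over the 12 libraries, called 118 genes (1.18% of those tested), and 0 of these 30 genes were among them by edgeR (4 at an unadjusted p under 0.05). AXIN1 stood at -1.63 in DMSO and -1.80 in trametinib (difference -0.16 ± 0.27, adjusted p = 0.975), FTL at -3.49 and -4.10 (adjusted p of the difference 0.466). Of the 79 ribosomal protein genes, 65 were called lower in trametinib than in DMSO (1.08% of all genes tested), and the list's median log2 density was -0.76 in DMSO and -1.85 in trametinib. Of the Wnt genes CSNK1A1, and of the cell cycle genes CDKN2C, were called higher in trametinib.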

How the data were processed

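Per the study's methods, RNA fragments protected from RNase I in monosomes (RPF) and fragmented total RNA from an aliquot of the same lysate (IN) were sequenced from HCT116 cells. The authors removed reads of ribosomal and transfer RNA with Bowtie, version 1.2.2 in the submitters' processing notes, and mapped the rest to Gencode transcripts. They deposited raw counts of reads in reading frames per gene symbol, without reads shared between symbols, which affects genes with near-identical copies. The table also holds 12 columns of values normalized by the authors and their fold changes, adjusted p-values and gene flags for trametinib over DMSO, which were not used.

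Genes with at least 10 counts in all 3 DMSO input libraries were tested for RPF over IN. The test was the quasi-likelihood test of edgeR 4.0.16 in R 4.3.3 (TMM scaling, Benjamini-Hochberg adjustment over 9987 genes, threshold 0.05). The same fit in trametinib and an interaction over 12 libraries gave the values set side by side. A run of the test on simulated counts had few changed genes and unpaired libraries, so it does not cover data in which as many genes differ as here. Ratios of single pairs of libraries used a prior count of 0.5. DESeq2 1.42.0, limma 3.58.1 and other filters and scalings were alternatives. All adjusted p-values in the text are edgeR's unless named otherwise. Unless a block is named, they weigh a difference against the spread between libraries of the same assay and treatment, which may be partly technical. The main fit, the trametinib fit and the interaction had no term for the replicate number. They thus left out the pairing of IN and RPF by lysate, and did not use the spread of ratios within lysates. Counting floors cover counting error only.

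Replicate numbers pair IN and RPF of one lysate by the study's methods. Deviations from the group means of same-numbered libraries correlated over 5057 genes with r = 0.86, 0.20 and 0.37 for replicates 1, 2 and 3, but those of IN 2 with RPF 3 (0.50) and of IN 3 with RPF 2 (0.54) correlated more.

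Named genes were the 15 highest and 15 lowest called genes with a mean normalized input count of at least 100 and all 3 pairs on one side of 0, the extremes of each gene list and all genes of lists of up to 15, AXIN1, and the 10 genes with the most footprints per codon. EIF4E, EIF1AX, EIF2S1, EIF4G2 and the further examples within lists were chosen after their values were seen. A few genes that this rule names are not reported here. The members and lists were chosen with earlier results of these data known. Sequences and leaders came from RefSeq GRCh38.p14 and Gencode v44 (hg38), where 9909 of the genes tested had a reading frame, and leader counts use the canonical transcript.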

Additional observations from a re-analysis of the deposited data

Results flagged for a closer look

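For 10 genes with values above, the test of the difference in ribosome density between trametinib and DMSO over all 12 libraries passed (edgeR, Benjamini-Hochberg adjusted p over 9987 genes), which 1.18% of the genes tested did. They are given here because the value of untreated cells does not carry over to treated ones.

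Density was lower in trametinib for 8 of them. Among ribosomal proteins the log2 difference was -1.18 ± 0.16 for RPLP0 (adjusted p = 0.00134), -1.03 ± 0.15 for RPSA (0.00198), -0.94 ± 0.21 for RPS2 (0.0396) and -0.84 ± 0.19 for FAU (0.043). RPLP0, RPSA and RPS2 were already far below the typical ratio in DMSO, whereas FAU went from 0.76 in DMSO to -0.08. Among the other 5'TOP genes it was -1.28 ± 0.16 for EEF2 (0.000755), -1.13 ± 0.20 for EEF1A1 (0.00793) and -1.29 ± 0.23 for HNRNPA1 (0.00691), the last from 0.21 in DMSO to -1.08. AZIN1, the antizyme inhibitor, had a difference of -1.03 ± 0.22 (0.0327).

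Density was higher in trametinib for the other two. The log2 difference was 1.35 ± 0.30 for CSNK1A1 (0.0436), from 0.67 to 2.02. CDKN2C, the inhibitor of CDK4 and CDK6, had a difference of 3.09 ± 0.71 (0.0486), from -3.55 in DMSO to -0.47 in trametinib.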

How the results depend on the processing

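Of the counts of calls, 33 of 36 stayed within 1.5 times of the main value under the alternatives run. DESeq2 called 2708 higher and 2750 lower, limma 2677 higher and 2745 lower, no filter 3079 higher and 2901 lower and the fit without both replicate 1 libraries, chosen after seeing the data, 2847 higher and 2846 lower. Leaving out 1 library gave 2203 to 2698 higher and 2393 to 2738 lower. A change of at least 2-fold left 1184 and 1656. Scaling by library totals shifted the median of all genes by -0.12 and gave 2212 higher and 3176 lower, so that 41.1% of calls were higher against 48.9%. With the replicate number as a block, 3288 higher and 3334 lower were called, and among the genes named the block changed the call of HSPA5, ATF5, PPP1R15A, NDUFB7, PSMA1, PTMA and TUBA4A and of no other. Between treatments the block for each dish called 20 genes higher and 143 lower, against 10 and 108. Of 1818 values of single genes under an alternative, 1734 kept sign and call.

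List medians below are relative to all genes and moved by more than the SD over pairs or changed sign. When genes needed a mean normalized count of 100, the medians were -0.85 (small ribosomal subunit), -1.06 (other 5'TOP), 0.85 (proteasome), 0.58 (glycolysis), 1.08 (respiratory chain), 0.59 (mitochondrial ribosome), -1.11 (upstream frames), -0.73 (polyamine), -0.56 (selenoproteins), 0.31 (cell cycle), -0.28 (integrins and laminins), -0.13 (Wnt), 0.36 (epithelial) and -0.42 (ZNF). With no filter the medians were 0.69 (initiation factors), 0.77 (glycolysis), 1.19 (respiratory chain), 0.63 (actin and tubulin), -0.22 (integrins and laminins), 1.62 (splicing), 0.66 (epithelial) and -0.20 (ZNF). With both replicate 1 libraries left out the medians were 0.69 (mitochondrial ribosome), -0.76 (polyamine), 0.051 (iron responsive), 0.46 (cell cycle) and -0.053 (Wnt). With 10 counts in any 3 libraries the medians were -0.20 (integrins and laminins), -0.067 (Wnt), 0.51 (epithelial) and -0.23 (ZNF). Leaving out 1 library at a time, the medians that moved ranged from -0.82 to -0.68 (large ribosomal subunit), -0.83 to -0.64 (small ribosomal subunit), -0.95 to -0.70 (other 5'TOP), 0.16 to 0.64 (tRNA synthetases), 0.83 to 1.04 (proteasome), 0.54 to 0.86 (glycolysis), 1.03 to 1.23 (respiratory chain), 0.65 to 0.76 (mitochondrial ribosome), -1.28 to -0.46 (upstream frames), -0.76 to -0.23 (polyamine), -0.58 to -0.31 (selenoproteins), 0.32 to 0.52 (cell cycle), 0.26 to 0.67 (actin and tubulin), -0.45 to 0.18 (integrins and laminins), -0.070 to 0.029 (Wnt), 0.32 to 0.83 (epithelial) and -0.40 to -0.30 (ZNF). The ratios of footprint to input share ranged from 0.47 to 0.50 (all ribosomal proteins), 1.61 to 1.74 (respiratory chain), 1.31 to 1.46 (mitochondrial ribosome), 1.64 to 1.90 (proteasome), 1.21 to 1.41 (glycolysis) and 1.14 to 1.40 (actin and tubulin). Log2 densities near 0 changed sign: HNRNPA1 ranged from -0.032 to 0.35, MT-ATP8 ranged from -0.053 to 0.79 and TUBG1 ranged from -0.33 to 0.043. With mitochondrially encoded genes out of the total the ratios were 1.62 (respiratory chain), 1.34 (mitochondrial ribosome) and 1.70 (proteasome). The matching starts differed from the rest by -0.33 with at least 7 pyrimidines after the C. Input depth limits lowly expressed genes: 5811 genes in the table were not tested. The causes of these changes were not tested.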
